A study of Homo sapiens with 24 samples.

Results

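Glycolysis turns glucose into pyruvate, and the genes described here encode that chain together with the carriers at its ends. They are 34 genes: glucose carriers, the glycolytic enzymes, lactate dehydrogenase and lactate carriers, and the proteins that admit pyruvate to the mitochondrion or control its oxidation there. They were chosen by symbol, and all 34 were found among the 60666 genes of the count table, each under a single identifier. All 34 also passed the filter on low counts in each line. The libraries came from A549, a line from a human lung adenocarcinoma, and H460, a line from a human large cell lung carcinoma, each labelled wild type and grown in RPMI with 10% fetal bovine serum. Each line was transfected with a control siRNA (siNT) or with an siRNA that depletes RICTOR (siRIC), and RNA was taken from the whole lysate (total) or from polysomal fractions, the part of a gradient where mRNAs carry several ribosomes. This gave 8 groups of 3 libraries, and every group was transfected. The sources used here do not state the siRNA sequences, how many siRNAs were used or how long the cells were transfected, and each line stands for itself alone. The labels number the libraries 1 to 3 in each group and call the number a batch, and they do not say whether the numbers were separate cultures, so p-values measure the spread between these libraries, which may be technical.

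Glucose enters through carriers of the SLC2A family and is trapped by hexokinases. Phosphofructokinase is the main control point, and PFKFB enzymes set the level of fructose 2,6-bisphosphate, its strongest activator. Cancer cells often send much of their pyruvate to lactate, which leaves by monocarboxylate carriers, and pyruvate dehydrogenase kinases favour this by switching off entry to the citric acid cycle. RICTOR is the defining subunit of mTOR complex 2, a kinase that activates AKT, and AKT signalling is known to raise glucose uptake and glycolysis. Many of these genes are known targets of HIF-1, a transcription factor made of HIF1A and ARNT.

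Total counts ranged from 19087204 to 26550160 per library. Levels below are CPM, that is counts relative to library size, scaled by edgeR's TMM factors over all 24 libraries; they are not divided by transcript length, so a level is compared between libraries and never between genes. The 34 genes together took 1.73% to 2.13% of the counts in the total RNA libraries and 2.28% to 4.29% in the polysomal libraries, while the 13 mitochondrially encoded mRNAs, which are not translated on cytosolic polysomes, took 10.8% to 14.2% and 1.64% to 3.19%. Keratins KRT8 and KRT18 were abundant in both lines, at 2155 CPM or more in A549 and 590.3 CPM or more in H460. KRT19 never exceeded 0.993 CPM in A549 and was at 567 CPM or more in H460. KRT7 was at 1521 CPM or more in A549 and never exceeded 16.7 CPM in H460. EPCAM, another epithelial marker, was low, at most 7.05 CPM in A549 and 1.32 CPM in H460. The summed epithelial markers below thus partly come from different keratins in each line. CDH1, the epithelial cadherin, was at 0 in every H460 library and at 35.3 CPM or more in A549. Of 5 fibroblast markers, VIM was abundant in both lines and COL1A2 never exceeded 0.0572 CPM. LUM and DCN were at least 42.3 and 3.56 CPM in H460 and at most 0.783 and 0.131 CPM in A549, and COL1A1 reached 10.02 CPM in A549 and 2.17 CPM in H460. Of 3 immune markers, CD3E was at 0 in every library, PTPRC never exceeded 0.108 CPM, and CD68, a lysosomal protein that marks macrophages, had 24.4 to 49.0 CPM in A549 and 39.1 to 146 CPM in H460, while the summed endothelial markers never exceeded 0.153 CPM. RICTOR had 31.5, 26.1 and 33.8 CPM in A549 siNT total RNA and 12.4, 9.97 and 12.6 CPM in siRIC, and 18.7, 18.97 and 17.9 against 5.65, 7.23 and 6.38 CPM in H460, so the siRIC libraries lay below the siNT libraries in both lines. ARNT also was lower in every siRIC library, at 29.4, 27.9 and 30.1 (siNT) and 18.5, 14.3 and 20.1 CPM (siRIC) in total RNA of A549 and 28.1, 24.6 and 25.3 (siNT) and 18.4, 17.7 and 17.9 CPM (siRIC) in that of H460. The log2 change of HIF1A was -0.15 ± 0.15 in A549 and -0.13 ± 0.24 in H460 total RNA, with adjusted p = 1 in both (edgeR's quasi-likelihood test). The H460 polysomal libraries of replicate 3 stood apart from replicates 1 and 2, and so did the A549 siRIC polysomal library of replicate 1. The main counts over the 34 genes in polysomal RNA are given with and without them.

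Promoters of 6 of the genes are shown because 4 of them (SLC2A1, HKDC1, PFKFB3 and PGK1) had lower polysomal levels with siRIC in A549 once replicate numbers were taken into account, LDHA holds the most motif matches of the 31 found, and MPC2 is among those with none. The windows run from 250 bases before to 50 bases after the start that a promoter set gives for each gene (GRCh38.p14), 5′ to 3′ on the gene's strand. That start is not always the outer end of the gene in RefSeq. The RefSeq span of MPC2 reaches 167937072, so its window lies inside the gene, and the outer start was not searched. The windows of GPI, PFKM, PFKP, PFKFB4, GAPDH, PGAM1, ENO3, PKM and SLC16A3, not printed, also lie inside their genes. Their outer starts were not searched either, and PFKM, PFKP, PGAM1 and SLC16A3 had no match in these windows. Capitals mark ACGTG or GCGTG on either strand (CACGT or CACGC as printed), the core letters of the element that HIF-1 binds; overlapping matches on both strands count separately.
SLC2A1, chr1:42958819-42959118, minus strand: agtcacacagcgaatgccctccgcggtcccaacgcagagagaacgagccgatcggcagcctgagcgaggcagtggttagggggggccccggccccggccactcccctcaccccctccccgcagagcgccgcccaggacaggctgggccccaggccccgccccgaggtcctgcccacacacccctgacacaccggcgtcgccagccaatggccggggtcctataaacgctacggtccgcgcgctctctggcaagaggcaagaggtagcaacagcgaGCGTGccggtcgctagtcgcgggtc
HKDC1, chr10:69220082-69220381, plus strand: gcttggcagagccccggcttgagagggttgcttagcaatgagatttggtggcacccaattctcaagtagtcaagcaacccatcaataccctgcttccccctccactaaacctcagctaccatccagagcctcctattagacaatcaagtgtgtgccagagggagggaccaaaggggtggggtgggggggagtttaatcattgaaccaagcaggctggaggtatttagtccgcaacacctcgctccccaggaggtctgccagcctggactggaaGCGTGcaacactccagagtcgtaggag
PFKFB3, chr10:6144671-6144970, plus strand: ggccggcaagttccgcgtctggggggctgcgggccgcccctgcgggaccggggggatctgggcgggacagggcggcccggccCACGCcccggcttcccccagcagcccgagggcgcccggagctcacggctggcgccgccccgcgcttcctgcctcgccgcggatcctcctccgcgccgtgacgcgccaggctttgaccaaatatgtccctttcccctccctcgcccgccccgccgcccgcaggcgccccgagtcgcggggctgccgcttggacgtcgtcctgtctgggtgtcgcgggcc
PGK1, chrX:78103998-78104297, plus strand: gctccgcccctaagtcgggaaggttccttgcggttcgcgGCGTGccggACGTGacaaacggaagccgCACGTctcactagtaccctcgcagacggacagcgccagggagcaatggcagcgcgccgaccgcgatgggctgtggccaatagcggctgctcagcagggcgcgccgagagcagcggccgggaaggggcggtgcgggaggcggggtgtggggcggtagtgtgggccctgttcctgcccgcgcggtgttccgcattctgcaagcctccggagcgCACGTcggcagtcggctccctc
LDHA, chr11:18394313-18394612, plus strand: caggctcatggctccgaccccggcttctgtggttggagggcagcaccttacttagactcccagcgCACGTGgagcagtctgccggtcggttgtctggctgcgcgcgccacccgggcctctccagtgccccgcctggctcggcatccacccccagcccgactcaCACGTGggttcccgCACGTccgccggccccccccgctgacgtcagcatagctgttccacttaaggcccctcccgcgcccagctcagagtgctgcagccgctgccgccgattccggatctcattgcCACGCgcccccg
MPC2, chr1:167935947-167936246, minus strand: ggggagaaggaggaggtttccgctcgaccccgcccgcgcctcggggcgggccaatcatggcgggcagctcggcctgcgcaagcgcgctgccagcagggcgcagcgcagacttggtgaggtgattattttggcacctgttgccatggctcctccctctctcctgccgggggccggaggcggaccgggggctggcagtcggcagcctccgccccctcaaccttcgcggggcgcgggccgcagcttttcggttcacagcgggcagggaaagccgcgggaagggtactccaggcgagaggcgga
Of the 31 member promoters in the table, 22 held at least 1 match, which is 71.0%, against 48.4% of all 35116 promoters and 62.5% of the 11853 promoters of genes tested here. LDHA had 6 matches, PGK1 had 4, SLC2A1, HKDC1 and PFKFB3 had 1 each, and MPC2 had none in this window. A match is a run of letters and no measure of binding.

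Before any change with siRIC, the lines differed in which family members they used. Of the 34 genes, 14 were higher and 13 were lower in H460 than in A549 in siNT total RNA (edgeR's quasi-likelihood test, adjusted p under 0.05 over all 16507 genes tested), against 26.2% of all genes higher and 28.9% lower. Among the 6 genes of glucose entry, 5 were higher in H460. SLC2A1, the ubiquitous glucose carrier GLUT1, had 55.2, 70.4 and 83.8 CPM in A549 and 346, 455 and 475 CPM in H460, a log2 difference of 2.61 ± 0.25 (± SE, n = 3 per line, adjusted p = 5.19e-09). SLC2A3, the high-affinity carrier GLUT3, differed by 1.60 ± 0.17. HK2, the hexokinase that many tumours induce, was low in A549, with 1.11, 1.27 and 1.75 CPM, and stood at 43.8, 56.1 and 48.2 CPM in H460 (log2 difference 5.17 ± 0.29, adjusted p = 5.61e-13). HKDC1, a hexokinase relative, went the other way, with 33.8, 35.3 and 51.3 CPM in A549 and 4.89, 4.27 and 4.83 CPM in H460 (log2 difference -3.10 ± 0.30). HK1 was higher in H460 by 1.90 ± 0.27 and ADPGK, an ADP-dependent glucokinase, by 0.48 ± 0.18. The lines did not overlap for any of these 6 genes. In RNA from whole cultures, fewer cells that express a gene and less of its RNA per cell cannot be told apart.

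The phosphofructokinase isoforms divided between the lines. The platelet isoform PFKP was lower in H460 (log2 difference -1.19 ± 0.21), while the muscle isoform PFKM (1.30 ± 0.17) and the liver isoform PFKL (0.60 ± 0.21) were higher. PFKFB3, the isoenzyme that most favours making the activator, had 209, 279 and 257 CPM in A549 and 26.8, 26.2 and 26.6 CPM in H460, a log2 difference of -3.23 ± 0.26 (adjusted p = 2.33e-10). PFKFB2 was lower by -0.85 ± 0.25 and PFKFB4 higher by 0.96 ± 0.34. The aldolase isoforms parted in the same comparison. ALDOC had 4.43, 4.203 and 4.64 CPM in A549 and 27.8, 27.5 and 17.6 CPM in H460 (log2 difference 2.46 ± 0.35), and ALDOA, the main aldolase of most tissues, was not called (-0.12 ± 0.26, adjusted p = 0.712).

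In the lower chain, 4 enzymes that most cells share were not called between the lines: GAPDH (0.03 ± 0.26), PGK1 (0.12 ± 0.12), PGAM1 (0.066 ± 0.17) and ENO1 (0.16 ± 0.26). ENO3, the muscle enolase, was low in both lines and was not called (-0.74 ± 0.35, adjusted p = 0.079). ENO2, the neuronal enolase, was lower in H460 by -1.88 ± 0.28 on the log2 scale, as were PKM, the pyruvate kinase of most tumours (-0.74 ± 0.26), and BPGM (-0.62 ± 0.19). At the lactate end, SLC16A3, the lactate exporter MCT4, had 16.4, 10.98 and 16.8 CPM in A549 and 555, 734 and 534 CPM in H460. Its log2 difference of 5.37 ± 0.39 was the largest among the 34 genes (adjusted p = 5.78e-11). SLC16A1, the carrier MCT1, was higher in H460 by 1.43 ± 0.26, while the dehydrogenase subunits LDHA (-0.45 ± 0.13) and LDHB (-0.40 ± 0.15) were lower. Of the pyruvate dehydrogenase kinases, PDK1 was higher in H460 (1.83 ± 0.25) and PDK3 lower (-1.48 ± 0.19). PDK2 had 24.7, 20.4 and 24.8 CPM in A549 and 1.48, 1.47 and 0.557 CPM in H460 (log2 difference -4.32 ± 0.29, adjusted p = 1.52e-11). The mitochondrial pyruvate carrier is built of MPC1 and MPC2. MPC1 had 2.62, 2.21 and 1.75 CPM in A549 and 14.5, 12.2 and 14.5 CPM in H460 (log2 difference 2.64 ± 0.25), whereas MPC2 was not called (0.17 ± 0.14, adjusted p = 0.327).

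**Figure D1:**
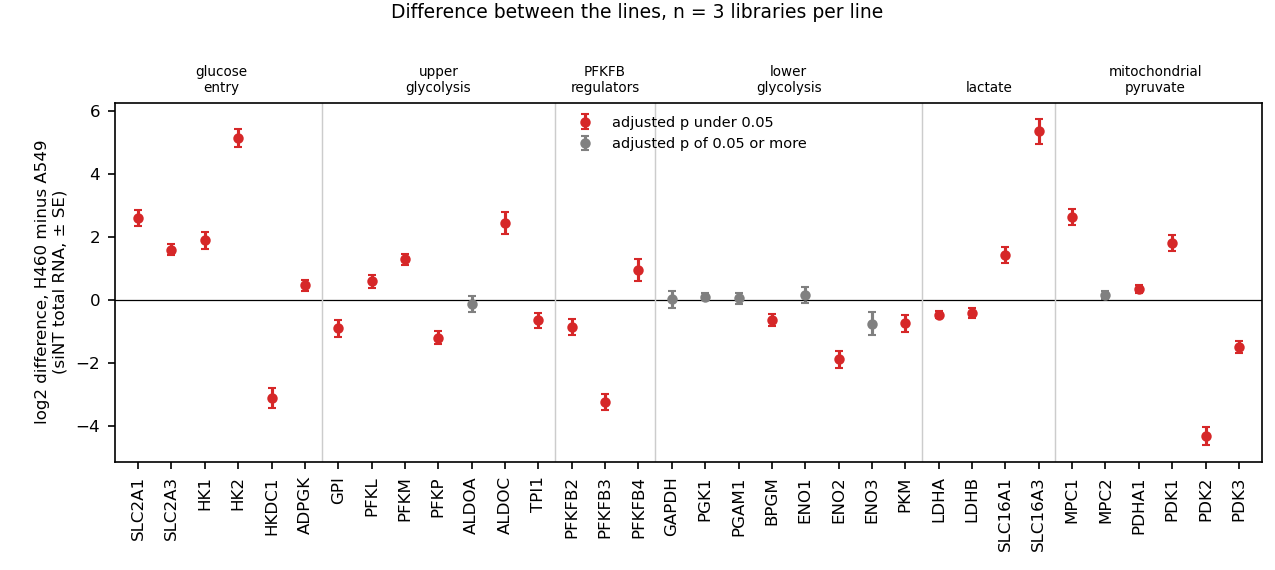
Log2 difference between H460 and A549 in siNT total RNA (vertical axis) for each of the 34 genes, grouped by role (horizontal axis). Points are edgeR estimates with SE, n = 3 libraries per line; the 27 red points passed the adjusted threshold, and GAPDH, PGK1, PGAM1 and ENO1 lie near 0 between isoforms that differ by up to 5.37.

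Polysomal RNA was richer than total RNA in many of these mRNAs. In A549 siNT cells 18 of the 34 were higher in the polysomal libraries and none lower, against 18.3% of all 15396 genes higher and 18.8% lower. In H460 siNT cells 12 were higher and 1 lower, against 12.5% and 10.5%. The median log2 difference of the 34 was 0.50 in A549 and 0.38 in H460, where the median over all genes was -0.043 and -0.022. The 12 genes higher in H460 included 11 of the 18 higher in A549, which is 61.1% of the A549 list and 91.7% of the H460 list. The siRIC libraries gave 17 higher and 1 lower in A549, against 21.2% and 21% of all genes, and 13 higher and 1 lower in H460, against 13.1% and 10.6%. Without the A549 siRIC polysomal library of replicate 1, 19 were higher and 3 lower in A549 siRIC cells, against 22.8% and 21.1% of all genes. A ratio above 0 says that an mRNA takes a larger share of polysomal than of total RNA, and both are relative to the other mRNAs in the same library.

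By role, the genes higher in polysomal RNA of A549 siNT cells were 5 of 7 of upper glycolysis, 6 of 8 of lower glycolysis, all 4 of the lactate end, 2 of 6 of glucose entry, 1 of 6 of the mitochondrial end and 0 of 3 PFKFB genes. PFKL, the liver phosphofructokinase, went from 71.2, 67.3 and 73.7 CPM in A549 siNT total RNA to 156, 181 and 189 CPM in polysomal RNA, a log2 difference of 1.33 ± 0.15 (adjusted p = 1.20e-05). The other phosphofructokinase isoforms differed less, PFKP by 0.55 ± 0.20 and PFKM by 0.18 ± 0.18 (adjusted p = 0.445); the difference between isoforms was not tested. ALDOA had 1869, 1966 and 1839 CPM in total and 3815, 4951 and 4353 CPM in polysomal RNA of A549 (log2 difference 1.23 ± 0.17). In H460 the same gene had 1838, 1728 and 1652 CPM in total and 4627, 5637 and 2349.5 CPM in polysomal RNA (1.26 ± 0.31, adjusted p = 0.0121). All polysomal libraries lay above all total libraries for this gene in both lines.

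TPI1, the isomerase that interconverts the products of aldolase, had 1059, 1146 and 957 CPM in total and 1920.2, 2409 and 2329 CPM in polysomal RNA of A549 (1.09 ± 0.16), and 709, 688 and 641 against 1638, 1942 and 861 CPM in H460 (1.11 ± 0.29). LDHB, the heart-type subunit of lactate dehydrogenase, had 708, 641 and 649 CPM in total and 1559, 1411 and 1723 CPM in polysomal RNA of H460 (1.22 ± 0.14, adjusted p = 0.000244), and differed by 0.87 ± 0.16 in A549. Neither gene's polysomal and total libraries overlapped in these groups. PGK1, the first enzyme of the chain to make ATP, gave nearly the same value in both lines, 1.05 ± 0.13 in A549 and 1.06 ± 0.13 in H460. GAPDH differed by 0.91 ± 0.17 and 1.09 ± 0.32, and ENO1 by 1.06 ± 0.19 and 1.10 ± 0.29. GAPDH, PGK1, ENO1, PGAM1, TPI1, LDHA and LDHB have processed pseudogenes of near-identical sequence, and the sources used here do not say how the authors' counting shared reads with these, so their levels are uncertain to that extent. PFKFB3 was the exception in H460, with 26.8, 26.2 and 26.6 CPM in total and 16.99, 19.9 and 12.4 CPM in polysomal RNA (log2 difference -0.70 ± 0.21, adjusted p = 0.0296); in A549 it was -0.14 ± 0.24 and not called. SLC2A3 was lower in polysomal RNA in A549 siRIC cells (-0.42 ± 0.14, adjusted p = 0.0292). The difference between the lines in the siNT ratio was called for none of the 34 (edgeR; 1 at an unadjusted p under 0.05, 0 with DESeq2), against 0% of all genes.

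**Figure D2:**
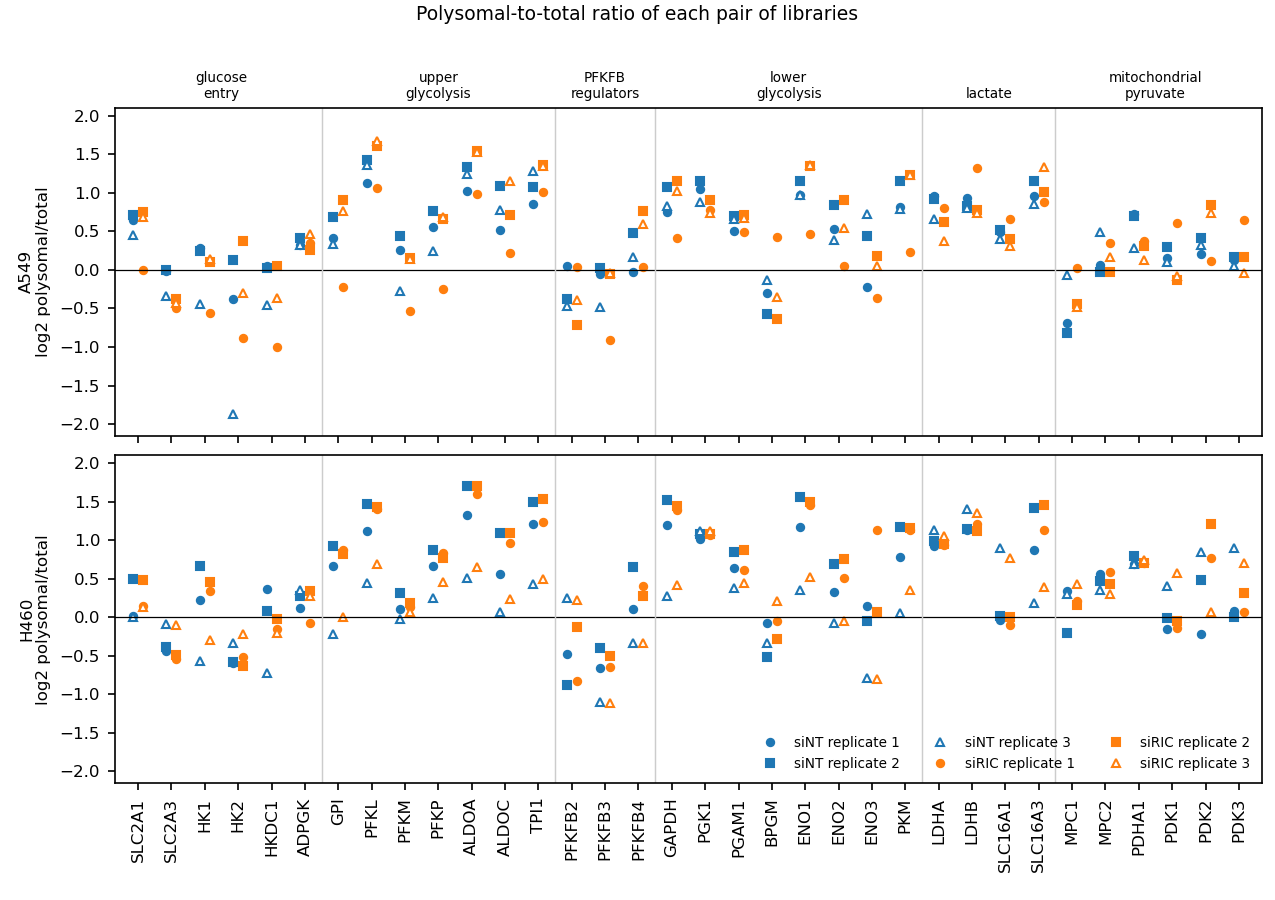
Log2 ratio of polysomal to total CPM (vertical axis, pseudocount 0.1 CPM) for each pair of libraries that share a line, an siRNA and a replicate number, for the 34 genes (horizontal axis). Blue marks siNT and orange siRIC; PFKL, ALDOA, TPI1, PGK1 and LDHB lie above 0 in every pair of both lines, and the open triangles of H460 (replicate 3) lie below the other H460 pairs for many glycolytic enzymes.

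Pair by pair, the median log2 ratio over the 34 genes lay between 0.29 and 0.64 in A549 and between 0.26 and 0.66 in H460. In H460 the replicate 3 pairs differed from the others in a gene-specific way. ENO1, the main enolase, had log2 ratios of 1.17, 1.56 and 0.35 in the siNT pairs and 1.46, 1.5 and 0.52 in the siRIC pairs, in the order of replicates 1 to 3. GAPDH had 1.20, 1.52 and 0.27 and 1.39, 1.44 and 0.42, and GPI, the isomerase after hexokinase, 0.66, 0.93 and -0.22 and 0.87, 0.82 and 0.004. For these genes replicate 3 was the lowest pair under both siRNAs, and its difference from the mean of the other pairs lay between -1.09 for GAPDH and -0.84 for GPI. PGK1 had 1.01, 1.08 and 1.12 and 1.07, 1.07 and 1.12, and replicate 3 was no lower than the other pairs. SLC16A1 had -0.037, 0.017 and 0.90 and -0.10, 0.0015 and 0.76, where replicate 3 was the highest pair. With both H460 polysomal libraries of replicate 3 left out, 18 of the 34 were higher and 3 lower in polysomal RNA of H460 siNT cells, against 24.5% and 22.7% of all genes, so the shares over all genes rose as well. The lower ones were HK2, PFKFB3 and SLC2A3. The siRIC cells gave the same counts and the same lower genes, against 25.9% and 24.5% of all genes. Leaving out a single library moved the H460 siNT count of 13 to 8 without polysomal replicate 2, to 7 without total replicate 1, and to 5 without total replicate 2 or 3. The H460 siRIC count of 14 moved to 9 without polysomal replicate 1 or 2 or total replicate 1, and to 7 without total replicate 2 or 3. Shares over all genes are not given for these fits, so these counts do not show whether calls over all genes fell too. Under upper-quartile scaling the median over all genes moved to -0.131 in A549 and -0.137 in H460 siNT. The members called higher became 14 and 10, with 0 lower in A549 and 2 lower in H460 (HK2 and PFKFB3). The split of all genes in H460 siNT went from 1816 higher and 1531 lower to 1381 and 1968. That of A549 siNT under this scaling is not given.

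**Figure D3:**
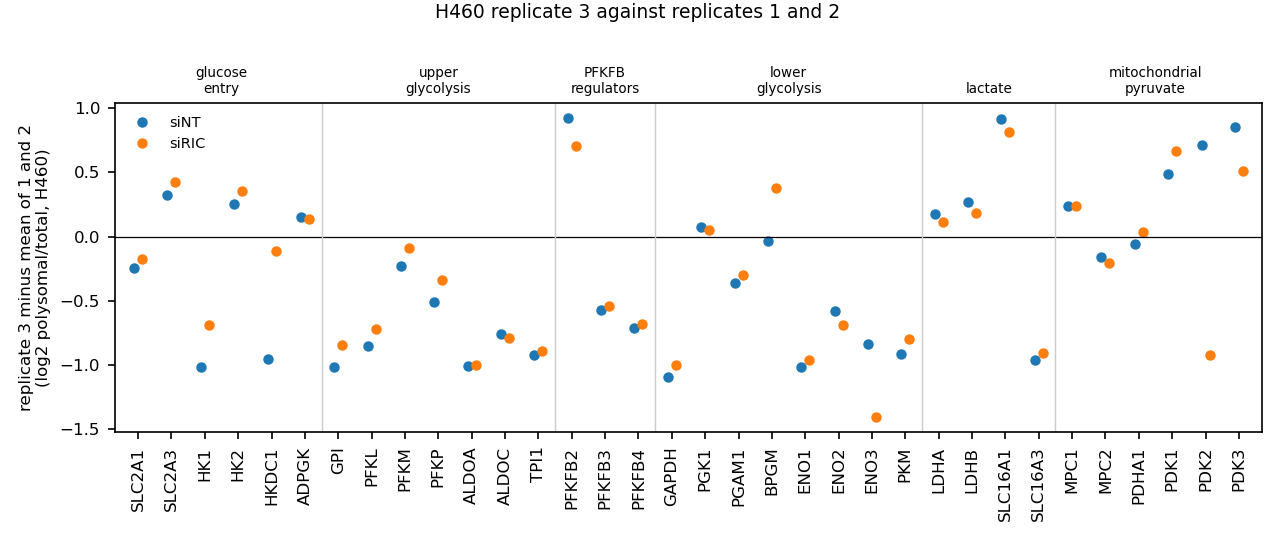
Log2 polysomal-to-total ratio of H460 replicate 3 minus the mean of replicates 1 and 2 (vertical axis) for the 34 genes (horizontal axis), siNT in blue and siRIC in orange, 1 value per point. GAPDH, ALDOA, ENO1 and SLC16A3 lie near -1 under both siRNAs, PGK1 and PDHA1 near 0, and SLC16A1 and PFKFB2 above 0.5.

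The siRIC comparisons ask whether depletion of RICTOR moved these mRNAs, and they share the siNT libraries with the comparisons above. In A549 total RNA most of them lay a little below their siNT level, and none passed the test. The log2 change was below 0 for 28 of the 34 genes, where 48.4% of all genes lay below 0, with a median of -0.20 against 0.0070 over all genes. Spread by role, 5 of 6 genes of glucose entry lay below 0, 6 of 7 of upper glycolysis, 6 of 8 of lower glycolysis, all 4 of the lactate end, all 6 of the mitochondrial end and 1 of 3 PFKFB genes. None passed the adjusted threshold (edgeR; 4 had an unadjusted p under 0.05, and DESeq2 called 0), against 0.325% of all genes called. For 14 of the 34 every siRIC library lay below every siNT library, against 9.61% of all genes. These were HK1, GPI, PFKFB3, ALDOA, ALDOC, GAPDH, PGK1, ENO1, PKM, LDHA, LDHB, PDK1, MPC1 and MPC2. The summed epithelial markers were also lower in these libraries, at 6069 to 7872 CPM with siRIC and 9444 to 11238 CPM with siNT, as were the summed immune markers, nearly all CD68, at 24.6 to 31.0 against 37.7 to 44.0 CPM. Their part in the result was not tested.

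PFKFB3 had 209, 279 and 257 CPM in A549 siNT total RNA and 145, 169 and 169.7 CPM with siRIC. The groups were apart, and the log2 change was -0.62 ± 0.24 (adjusted p = 0.514). MPC2 had 80.1, 75.98 and 71.1 (siNT) and 59.8, 61.9 and 54.1 CPM (siRIC), also apart (-0.37 ± 0.15, adjusted p = 0.593). The next 4 genes were named after their values were seen. GPI had 726, 761 and 759 (siNT) and 561, 509.7 and 597 CPM (siRIC) (-0.43 ± 0.21). ENO1 had 2164, 2240.5 and 2263 against 1799, 1804 and 1913 CPM (-0.27 ± 0.19), and HK1, the housekeeping hexokinase, 25.3, 25.3 and 27.6 against 18.9, 18.9 and 22.97 CPM (-0.36 ± 0.20). SLC2A1 had 55.2, 70.4 and 83.8 against 47.8, 47.8 and 61.2 CPM (-0.41 ± 0.22), and here the groups overlapped although each siRIC library was below the siNT library of its number. Such pairs were lower with siRIC in all 3 numbers for 25 of the 34 genes, against 25.1% of all genes. PFKFB2 was the 1 member with every siRIC library above every siNT library, 9.99, 10.01 and 10.6 CPM against 6.89, 8.88 and 9.32 CPM (0.29 ± 0.18), against 8.11% of all genes.

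How many of these small changes were called depended on the spread assumed. With replicate number as a block in the fit of all 12 A549 libraries, 0 of the 34 were called in total RNA (10 at an unadjusted p under 0.05), against 1.68% of all genes. With the block and only the 6 total RNA libraries, a fit added after the data were seen, 19 were called lower and ENO2 higher, against 9.91% of all genes lower and 8.74% higher. In that fit PFKFB3 changed by -0.61 ± 0.045 (adjusted p = 1.57e-08), GPI by -0.43 ± 0.046 (adjusted p = 1.91e-06) and ENO2 by 0.21 ± 0.059 (adjusted p = 0.0193). The estimates thus stayed where they were and the standard errors shrank. Leaving out both libraries of a number in turn gave 15, 16 and 14 lower. Block fits of so few libraries have very few residual degrees of freedom, so their standard errors lean on the spread shared across genes. The counts therefore cannot show how far the result rests on a single pair. Shares over all genes are not given for the fits with a number left out. The block in all A549 libraries except the siRIC polysomal library of replicate 1 called 5 lower, namely ALDOA, ENO1, GPI, PFKFB3 and SLC2A1, against 3.13% of all genes lower.

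In A549 polysomal RNA 25 of the 34 lay below 0 with siRIC, where 47.5% of all genes did, with a median log2 change of -0.20. Without the siRIC polysomal library of replicate 1, 22 lay below 0, against 49.2% of all genes, and the median was -0.12 (21 and -0.099 with the replicate block). None passed the adjusted threshold (edgeR; 10 at an unadjusted p under 0.05; DESeq2 called PGK1), against 0.676% of all genes. With the replicate block 4 were called, all lower, against 2.12% of all genes called lower. PGK1 had 1191, 1347 and 1147 (siNT) and 842, 899 and 925 CPM (siRIC), without overlap, a log2 change of -0.46 ± 0.13 (adjusted p = 0.122, and 0.0245 with the block). PFKFB3 had 202, 284 and 183 against 76.9, 163 and 164 CPM (-0.73 ± 0.24, adjusted p = 0.202, and 0.0231 with the block). HKDC1 had 34.9, 35.8 and 37.3 against 13.04, 21.6 and 32.1 CPM (-0.69 ± 0.27, adjusted p = 0.281, and 0.0283 with the block). In all 3 genes the siRIC libraries lay below the siNT libraries, and in each the lowest value was the library of replicate 1, which stood apart. SLC2A1 had 86.8, 116 and 115 against 47.9, 80.6 and 98.4 CPM (-0.48 ± 0.22, adjusted p = 0.37, and 0.0452 with the block), with the groups overlapping. Here too the siRIC library of replicate 1 was lowest. SLC2A3 had 127, 131 and 113 against 86.2, 78.9 and 104 CPM, apart, with -0.46 ± 0.14 (adjusted p = 0.182, and 0.0503 with the block).

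LDHA, the muscle-type subunit that favours lactate, completed the 5 genes whose siRIC polysomal libraries all lay below the siNT libraries, against 7.15% of all genes; none lay above in all, against 5.64%. It had 3084, 3298 and 2576 (siNT) and 2519, 2209 and 2029 CPM (siRIC) (-0.40 ± 0.14, adjusted p = 0.237). Without the siRIC polysomal library of replicate 1 the block fit called 11 genes lower and PDK2 higher, against 6.67% of all genes lower and 8.6% higher. HKDC1, PFKFB3, PGK1 and SLC2A1 were among the 11, with SLC2A3, LDHA, MPC2, PDHA1, PDK1, PDK3 and SLC16A1. In the library left out, GPI stood at 481.0 CPM against 957 and 1010 CPM in the other siRIC libraries, and ENO1 at 2479 against 4607 and 4899 CPM. The summed epithelial markers had 9849 to 19806 CPM with siRIC and 21089 to 22652 CPM with siNT in polysomal RNA, and the summed immune markers 24.4 to 38.5 against 42.2 to 49.0 CPM; their part in the result was not tested. The ratio of polysomal to total RNA changed with siRIC for none of the 34 in A549 (edgeR; 0 at an unadjusted p under 0.05; DESeq2 called 0), against 0% of all genes. Its change was -0.11 ± 0.33 for PFKFB3, -0.22 ± 0.18 for PGK1 and -0.32 ± 0.20 for SLC2A3. The changes of PGK1 and SLC2A3 were larger than their SEs and still not called, so changes of this size in the ratio could be missed.

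**Figure D4:**
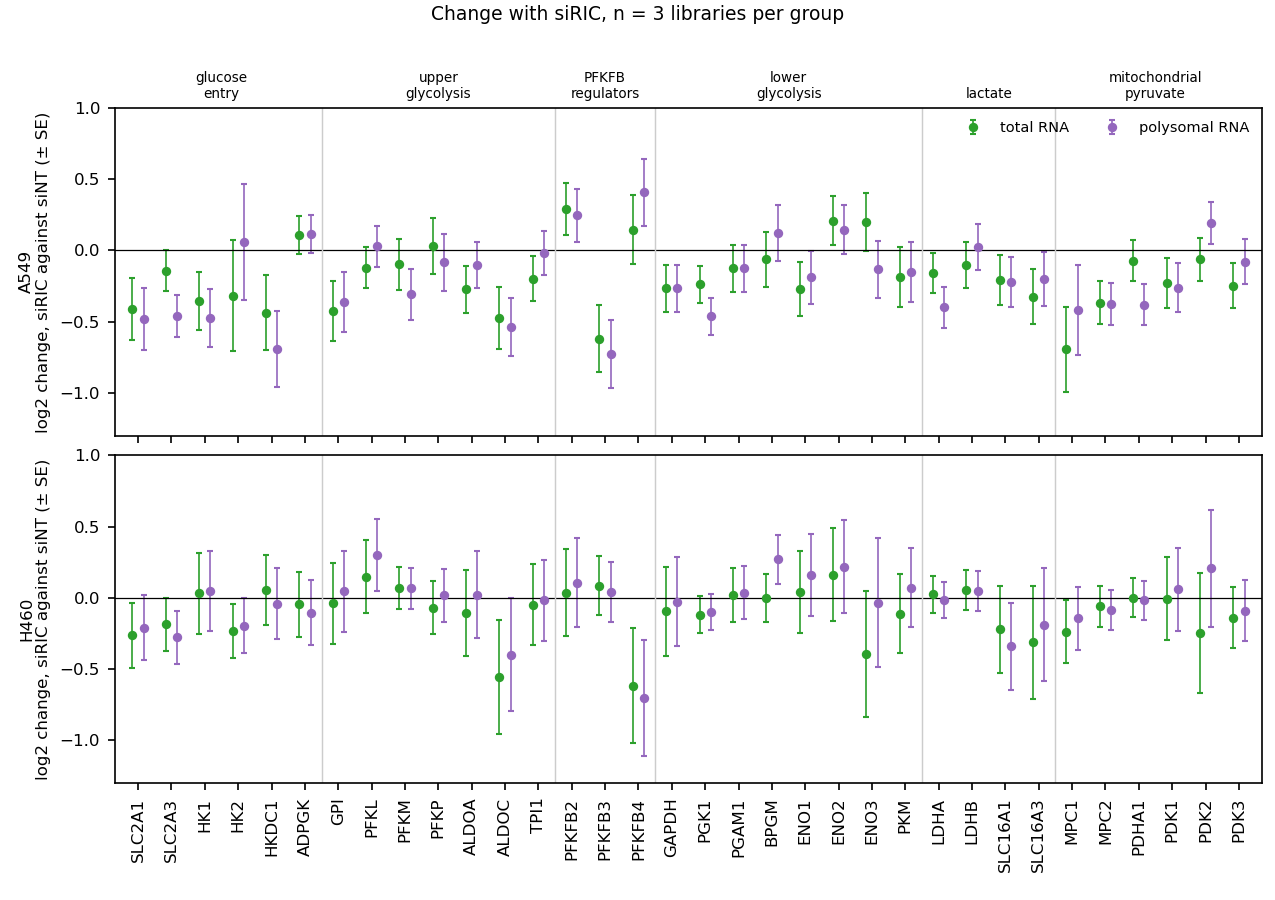
Log2 change with siRIC against siNT (vertical axis, edgeR estimate ± SE, n = 3 libraries per group) for the 34 genes (horizontal axis) in A549 (upper) and H460 (lower), total RNA in green and polysomal RNA in violet. In A549 total RNA 28 of the 34 points lie below 0, with PFKFB3 at -0.62; in H460 22 lie below 0 and the median is -0.054.

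In H460 total RNA 22 of the 34 lay below 0 with siRIC, where 45.9% of all genes did, with a median log2 change of -0.054. None was called (edgeR; 0 at an unadjusted p under 0.05; DESeq2 called 0), against 0% of all genes; RICTOR itself, at -1.52 ± 0.30, had adjusted p = 1 in this fit and was not called either. PFKFB4, the isoenzyme known for its induction by low oxygen, had 7.28, 8.396 and 5.16 (siNT) and 4.41, 5.41 and 3.68 CPM (siRIC) (-0.62 ± 0.40, adjusted p = 1). ALDOC had 27.8, 27.5 and 17.6 against 19.01, 17.1 and 13.1 CPM (-0.56 ± 0.40, adjusted p = 1). The groups overlapped for both genes, and each siRIC library was below the siNT library of its number. Groups were apart for PKM and PFKFB3. All siRIC libraries of PKM lay below the siNT libraries, 1395, 1468 and 1348 against 1479, 1596 and 1496 CPM, as for 6.31% of all genes. Those of PFKFB3 lay above, 26.8, 28.8 and 28.2 against 26.8, 26.2 and 26.6 CPM, as for 7.87% of all genes, although the closest libraries were equal after rounding. With the block and only the 6 total RNA libraries, a fit added after the data were seen, 4 were called lower, against 2.66% of all genes lower and 0.949% higher: ALDOC (-0.57 ± 0.075, adjusted p = 0.00585), PFKFB4 (-0.63 ± 0.13, adjusted p = 0.0359), HK2 (-0.25 ± 0.055, adjusted p = 0.0406) and SLC16A3 (-0.32 ± 0.056, adjusted p = 0.0166). RICTOR had adjusted p = 0.000154 in that fit. Leaving out both libraries of replicate 2 or of replicate 3 kept ALDOC alone, and leaving out those of replicate 1 gave 8 lower. These fits too have very few residual degrees of freedom, and their shares over all genes are not given.

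In H460 polysomal RNA 18 of the 34 lay below 0, where 45.2% of all genes did, and the median was -0.017. With both polysomal libraries of replicate 3 left out, 23 lay below 0, against 49.1% of all genes, with a median of -0.039. None was called (edgeR; 0 at an unadjusted p under 0.05; DESeq2 called 0), against 0% of all genes, and in none did every siRIC library lie below every siNT library, against 1.73% of all genes, or above, against 1.36%. PFKFB4 had 7.84, 13.3 and 4.07 (siNT) and 5.89, 6.58 and 2.89 CPM (siRIC) (-0.70 ± 0.40, adjusted p = 1). Its groups overlapped, with the replicate 3 libraries lowest in each. BPGM, which makes 2,3-bisphosphoglycerate, had 12.6, 9.79 and 12.2 against 13.7, 12.1 and 15.7 CPM (0.27 ± 0.17), also overlapping. The ratio of polysomal to total RNA changed for none of the 34 in H460 (edgeR; 0 at an unadjusted p under 0.05; DESeq2 called 0), against 0% of all genes.

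**Figure D5:**
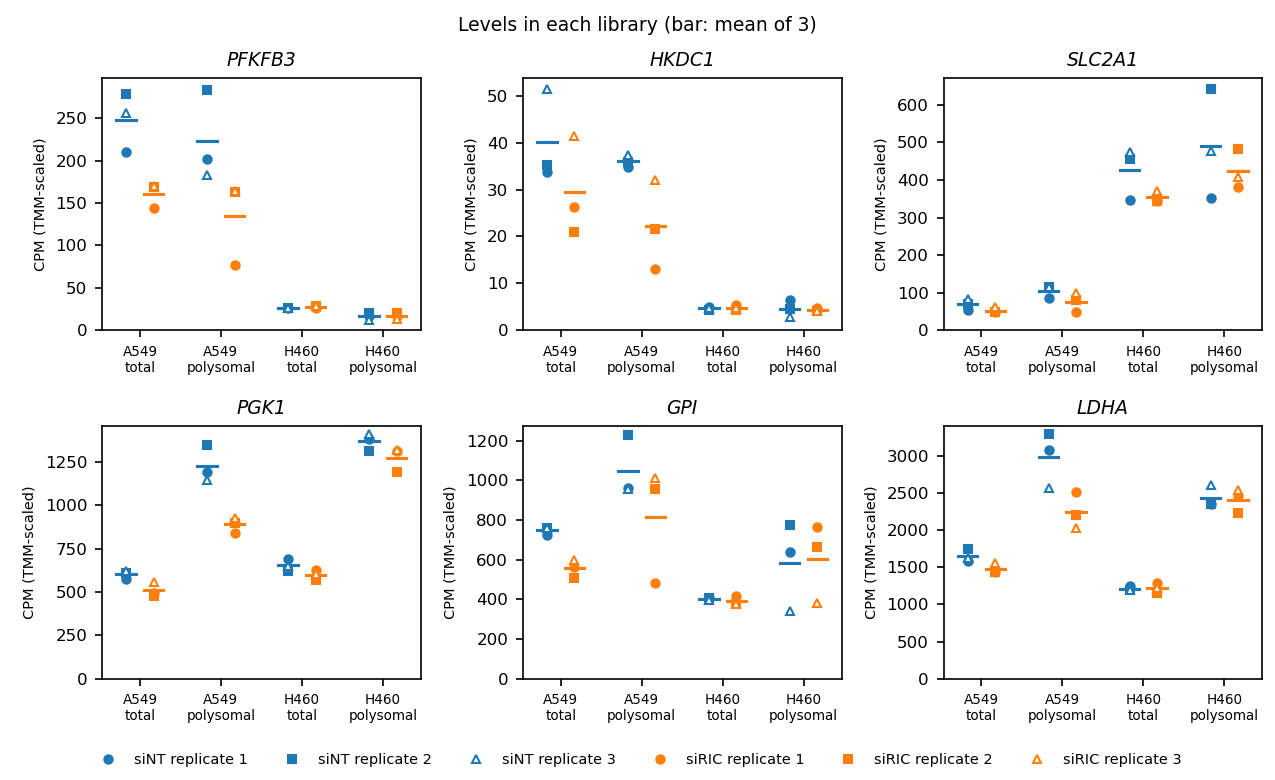
CPM in each library (vertical axis, TMM-scaled, from 0) of PFKFB3, HKDC1, SLC2A1, PGK1, GPI and LDHA by line and fraction (horizontal axis), siNT in blue and siRIC in orange, with a bar at the mean of 3. The siRIC libraries of PFKFB3 lie below the siNT libraries in both A549 fractions and close to them in H460, and the GPI library of A549 siRIC polysomal replicate 1 lies at 481.0 CPM under the others of its group.

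Averaged over both lines, 30 of the 34 lay below 0 in total RNA, against 49.3% of all genes, with a median log2 change of -0.16. None of the 34 was called (edgeR, with 5 at an unadjusted p under 0.05, and DESeq2 called 0), against 0.127% of all genes. With the block and only total RNA libraries, 17 were called lower and 0 higher, against 7.35% of all genes lower and 6.63% higher. In polysomal RNA 27 lay below 0, against 48.0% of all genes, with a median of -0.11. None of the 34 was called (edgeR, with 6 at an unadjusted p under 0.05, and DESeq2 called PGK1), against 0.133% of all genes. Without the A549 siRIC polysomal library of replicate 1, 22 lay below 0, against 50.9% of all genes, and the median was -0.070. Without both H460 polysomal libraries of replicate 3, 27 lay below 0, against 48.5% of all genes, and the median was -0.13. The response of H460 minus that of A549 was called for none of the 34 in total RNA (edgeR; 1 at an unadjusted p under 0.05; DESeq2 called 0), against 0% of all genes. It was called for none in polysomal RNA (edgeR; 4 at an unadjusted p under 0.05; DESeq2 called 0), against 0.00606% of all genes. Using both the block and total RNA libraries alone, the responses differed for 5 of the 34, against 1.78% of all genes called in that direction. The block over all 24 libraries and the total RNA libraries with no block each called 0. PFKFB3 had the smallest p of the 5, with H460 siRIC libraries a little above the siNT libraries and A549 siRIC libraries below them. The difference of the responses was 0.70 ± 0.079 (adjusted p = 0.000693; 1 without the block over all 24 libraries).

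Neighbouring pathways gave few calls in the siRIC comparisons without a block. Of 16 citric acid cycle genes, SUCLA2, a subunit of succinyl-CoA synthetase, was lower in A549 total (-0.77 ± 0.15, adjusted p = 0.0436) and polysomal RNA (-0.73 ± 0.15, adjusted p = 0.0302), and no other was called. None was called in either line or fraction among 9 shuttle genes, 9 of glycogen and nucleotide sugars, 8 tested of the pentose phosphate pathway, 7 of the pyruvate dehydrogenase complex, 5 of the serine branch and the other isoenzymes and carriers tested, 20 in A549 and 15 in H460 (edgeR; at most 3 of a list at an unadjusted p under 0.05). Their median log2 changes in A549 total RNA ran from -0.16 to 0.10 by list, where that of all genes was 0.0070. Between fractions of A549 siNT cells, 11 of 16 citric acid cycle genes, 7 of 9 glycogen genes, 5 of 9 shuttle genes, 5 of 8 pentose phosphate genes and 4 of 5 serine genes were higher in polysomal RNA, against 18.3% of all genes, and 1 pentose phosphate gene was lower. The pyruvate dehydrogenase complex gave 2 higher and 2 lower of 7, and the other isoenzymes 8 higher and 1 lower of 20. In H460 siNT cells 9 of 16 citric acid cycle genes, 3 of 9 shuttle genes, 3 of 9 glycogen genes, 2 of 7 genes of the pyruvate dehydrogenase complex, 1 of 8 pentose phosphate genes, 1 of 15 other isoenzymes and 0 of 5 serine genes were higher, against 12.5% of all genes. The pyruvate dehydrogenase complex and the pentose phosphate pathway each had 1 lower, against 10.5%.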

How the data were processed

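The authors deposited a merged salmon table that holds an estimated count for each of 60666 genes in 24 libraries, not normalized. Per the submitters' processing notes bcl2fastq 2.20 was used and the build was GRCh38; the salmon version, the annotation and any filters are not stated in the sources used here. Per the labels the molecule was polyA RNA, but the protocol in the same labels describes a total RNA preparation with rRNA removal, and the data were not used to decide between them. Of the values 9.40% were not whole. They were rounded, and genes were named from a symbol table that matched 60437 IDs. Replicates differed beyond sampling noise (chi-square per degree of freedom at least 9.42).

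Tests used edgeR 4.0.16 in R 4.3.3 (filterByExpr by group, TMM, quasi-likelihood F-test, Benjamini-Hochberg over all genes, threshold 0.05) with a mean per group: 12 libraries of a line (8 residual degrees of freedom), or all 24 (16) for comparisons across lines, 16 comparisons in all. SE is the absolute log2 change over the square root of F. Block fits of only the groups compared have far fewer residual degrees of freedom, so their SEs and p-values lean on the spread shared across genes. The fit was checked on simulated counts. Because the labels call the replicate number a batch, it was taken to pair libraries within a line. Deviations of same-numbered libraries from their group means correlated at 0.021 to 0.26 in A549 and 0.046 to 0.67 in H460, against at most 0.022 and 0.13 for other pairs. The library names carry another number, 3, 4 and 6 in A549 and 4, 6 and 7 in H460; across lines, libraries that share it correlated at -0.080 to 0.21 (median 0.0034), so it was not taken to pair them. The block was an alternative, as were DESeq2 1.42.0, upper-quartile scaling, no filter, only the groups compared and leaving out libraries. Counts on the log2 scale give fold changes relative to the other genes of a library.

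Values in every library were given for genes called with siRIC in fits of all 12 libraries of a line, with or without the block. They were also given for the 2 smallest p-values of each siRIC comparison and the 3 largest called differences between fractions and lines. Any other gene with library values was named after its values were seen. Library values were not given for every gene called only in other fits. The 34 genes and the lists were chosen with earlier results of these data known.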

Additional observations from a re-analysis of the deposited data

Results flagged for a closer look

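With the replicate block and only total RNA libraries, the response to siRIC differed between the lines for 5 of the 34 genes (edgeR's quasi-likelihood test of the difference itself). All 5 were in the direction in which 1.78% of all genes were called. The same fit called 3 of 8 pentose phosphate genes in that direction (PGD, TALDO1 and TKT), so such a difference was not particular to the 34. The response of H460 minus that of A549 was 0.70 for PFKFB3 (adjusted p = 0.000693), 0.39 for HK1 (adjusted p = 0.0181), 0.38 for GPI (adjusted p = 0.0171), 0.31 for ENO1 (adjusted p = 0.0125) and 0.30 for MPC2 (adjusted p = 0.0391) on the log2 scale. Each was lower with siRIC in all 3 A549 pairs, and the H460 log2 changes lay between -0.078 ± 0.053 for MPC2 and 0.064 ± 0.063 for PFKFB3. These calls needed both settings together: without the block over all 24 libraries the same differences had adjusted p = 1, and neither the block over all 24 libraries nor the total RNA libraries without a block called any of the 34. Leaving out both libraries of a number in a line gave 5, 3 and 4 calls for H460 numbers 1, 2 and 3. It gave 2, 1 and 2 for A549 numbers 1, 2 and 3, and PFKFB3 was called in all 6 fits. Shares over all genes are not given for these 6 fits, so the counts cannot be set against them here. The A549 siRIC total RNA libraries also had lower summed epithelial markers, 6069 to 7872 CPM against 9444 to 11238 CPM, and H460 had 1972 to 2173 against 2225 to 2354 CPM. Their summed immune markers had 24.6 to 31.0 against 37.7 to 44.0 CPM in A549 and 43.8 to 62.8 against 57.4 to 81.4 CPM in H460; the part of this was not tested.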

How the results depend on the processing

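Of the alternatives to the 16 counts of genes called, most gave a count within 1.5 times. For A549 total RNA, 0 genes called with siRIC became 1 with no filter on low counts, 5 with the replicate block less the siRIC polysomal library of replicate 1, and 20 with the replicate block in only the groups compared (16, 18 and 14 less both libraries of number 1, 2 or 3). For A549 polysomal RNA, 0 became 4 with the replicate block, 12 with the block less that library, 1 with DESeq2, 2 with no filter and 2 with the block in only the groups compared. For H460 total RNA, 0 became 4 with the block in only the groups compared (8, 1 and 1 less number 1, 2 or 3). The mean of both lines gave 17 with that fit in total RNA and 1 with DESeq2 in polysomal RNA, and the difference between lines 5 in total RNA (5, 3 and 4 less an H460 number, 2, 1 and 2 less an A549 number). H460 siNT polysomal against total gave 21 in place of 13 without both replicate 3 polysomal libraries, and leaving out 1 library gave 5 to 17 in siNT and 7 to 17 in siRIC. The block changed no other count by more than 1.5 times; replicate numbers lie within a line, so H460 against A549 was run instead with the number that leads the library name, which A549 replicates 2 and 3 share with H460 replicates 1 and 2, as a block (added after the data were seen). This gave 27 genes as before, and 0 in the other comparisons across lines. Fitting only the groups compared adds nothing to a comparison of ratios within a line. Causes were not tested beyond what each alternative leaves out. Calls over all genes also moved with the setting, so these counts alone do not show a change particular to the genes described here. In A549 total RNA 0.325% of all genes were called with all 12 libraries and no block. The replicate block in only the groups compared called 9.91% lower and 8.74% higher. For H460 siNT polysomal against total, 12.5% higher and 10.5% lower became 24.5% and 22.7% without both replicate 3 polysomal libraries. Not every alternative has such a share here. Among log2 changes of named genes, 565 values under alternatives stayed on the same side of the threshold, 51 gained a call, 4 lost it and 0 reversed. In H460 total RNA, RICTOR itself was not called with all 12 libraries and no block, which limits what a missing call says there.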
